A study of Mus musculus with 2 samples.

Results

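Transcripts of 9 genes that load fatty acyl groups on carnitine or release them from coenzyme A were examined in brown adipose tissue: the carnitine transferases Cpt1a, Cpt1b, Cpt2 and Crat and the acyl-CoA thioesterases Acot1, Acot2, Acot4, Acot11 and Acot13. They were taken by gene symbol from a table with 10778 symbols, where each of the 9 had a single transcript row, so that the row and the sum per symbol are the same value. All 9 passed the filter on low values used below, a mean of at least 1 FPKM over both libraries. FPKM divides the fragments of a transcript by its length and by the size of the library. Tissue came from male C57BL6/J mice of 8 to 12 weeks. The HFD control group ate a diet with 60% of its energy from fat for 10 days. The SML group ate that diet for the same time and was also given SML at 5 mg per kg body weight into the peritoneum. SML is the label's abbreviation, and the series title names sesaminol, a lignan of sesame. Each group was 1 library, and the number of mice behind it was not stated in the sources used here. With no replicates every difference below compares 2 libraries and has no test, and all intervals cover counting error only.

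Long-chain fatty acids are activated to acyl-CoA and cross into mitochondria as carnitine esters. CPT1 of the outer membrane makes the ester, a translocase carries it across the inner membrane, and CPT2 turns it back into acyl-CoA for beta-oxidation, the fuel supply of heat production in brown fat. Acyl-CoA thioesterases work the other way and split acyl-CoA into free fatty acid and coenzyme A, in the cytosol, in mitochondria or in peroxisomes according to the enzyme.

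From the deposited scaled counts, 12000054 fragments were estimated for the HFD control library and 8503531 for the SML library, each column's total over the value taken as 1 fragment. Genes were called higher or lower in SML at a difference of at least 1.5-fold in log2(FPKM + 1), a scale that understates differences of low genes. By that rule 538 of the 9887 genes kept were higher (5.44%) and 569 lower (5.76%), around a median difference of 0. Brown adipocyte markers were present, with Ucp1, the uncoupling protein, at 8702 FPKM for HFD control against 7955 for SML. Cox8b, the most abundant, stood at 22044 and 14824 FPKM. It was 1.52-fold lower by scaled counts (1.49 to 1.54) and just within the rule at a log2 difference of -0.57. Cox7a1 stood at 9041 and 10056 FPKM. Of the 10 kept, 2 were higher and 0 lower (1 higher with a trend on GC content and length removed). The higher ones were Dio2 (8.34 and 14.98 FPKM, ratio 1.79, 1.62 to 1.995) and Zic1, which was low, with 0.86 and 2.17 FPKM. With the trend removed Dio2 was under the rule, at 0.556. The 11th, Prdm16, named after its values were seen, was just under the filter with 1.42 and 0.41 FPKM, 3.44-fold lower (2.36 to 5.20). Of 7 general adipocyte markers 0 were higher and 1 lower. Skeletal muscle markers were lower for 17 of 17, with a summed level of 4804 FPKM in HFD control and 449 in SML. Of the other marker lists, 6 of 10 macrophage, 5 of 5 kept hepatocyte, 4 of 4 kept erythroid and 2 of 8 endothelial genes were lower, and 1 macrophage gene was higher. With the same trend removed, 3 of 10 macrophage and 2 of 4 erythroid genes were lower. In bulk tissue fewer cells of a type and less RNA per cell cannot be told apart.

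The 9 genes split by level and by difference. Acot2, Acot1 and Acot4, which lie side by side on chromosome 12 and were all weakly expressed, were 1.98-fold, 1.90-fold and 1.797-fold higher in the SML library. The other 6 genes lay within the 1.5-fold rule, from a ratio of 0.814 for Cpt1a to 1.35 for Acot13. By that rule 3 of the 9 were thus higher and 0 lower, beside 5.44% and 5.76% of all genes kept, with a median difference of 0.15 for the 9 and 0 for all genes. Among the 7299 genes at a mean of 1 to 25 FPKM, the band that holds the 3 and Cpt1a, 5.92% were higher and 5.93% lower.

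**Figure D1:**
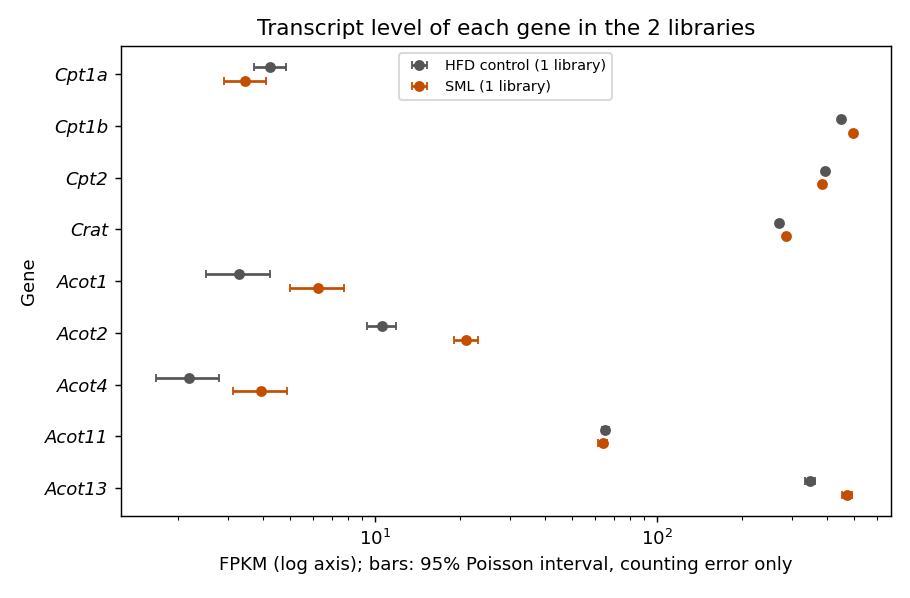
FPKM (log axis) of the 9 genes in the HFD control library (grey) and the SML library (orange), with 95% Poisson intervals for counting error as bars, mostly hidden behind the points of abundant genes. Cpt1b, Cpt2, Crat and Acot13 lie between 270 and 496 FPKM in both libraries, and Cpt1a, Acot1 and Acot4 below 7 FPKM.

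The order of the levels covered a wide range in both libraries. In the HFD control library it ran from Cpt1b (448 FPKM) through Cpt2 (393), Acot13 (347), Crat (270), Acot11 (65.3), Acot2 (10.6), Cpt1a (4.25) and Acot1 (3.29) to Acot4 (2.18). In the SML library Acot13 (471 FPKM) had passed Cpt2 (385), and Cpt1a (3.46) was last. Counting intervals of neighbours in this order overlapped for Cpt1a and Acot1 and for Acot1 and Acot4 in HFD control, and for Cpt1b and Acot13 and for Acot4 and Cpt1a in SML. Cpt1b ranked 328th of the 9887 genes by FPKM in HFD control and 291st in SML. Summed over genes, the 4 carnitine transferases came to 1116 FPKM for HFD control against 1171 for SML, and the 5 thioesterases to 428 against 566, of which Acot13 made 347 and 471.

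Cpt1b encodes the muscle and brown fat form of CPT1, the step that malonyl-CoA inhibits. Its single row stood at 448 FPKM in the HFD control library (441 to 454) and 496 in the SML library (488 to 505), from 16097 and 13113 fragments. The ratio of scaled counts was 1.11 (1.08 to 1.13), under the 1.5-fold rule. Annotated on the minus strand of chr15:89416405-89425863 (mm10), the gene has a coding transcript of 19 exons and 2895 bases, and the row implied a transcript of about 2993 bases. Implied lengths come from scaled counts per FPKM, calibrated on 570 genes with 1 row and 1 annotated transcript, where the median deviation was 5.94%.

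Cpt1a, the form known from liver, was scarce. Its level was 4.25 FPKM in HFD control (3.72 to 4.83) and 3.46 in SML (2.91 to 4.09), with 232 and 139 fragments. The ratio of 0.814 had an interval of 0.655 to 1.01, so a difference was not detectable at this depth. Hepatocyte markers were lower beside it, with a summed level of 36.3 FPKM in HFD control and 5.87 in SML over the 5 kept, and Alb at 6.40 FPKM in HFD control and listed at 0 in SML. Their part in the Cpt1a value was not tested. Within a library, per length, Cpt1b held 99.06% of the sum of both genes in HFD control (98.93 to 99.18) and 99.31% in SML (99.18 to 99.42), 105 and 143 times the level of Cpt1a. The coding regions of Cpt1a and Cpt1b are 67.7% identical over 2290 aligned bases and share no stretch longer than 20 bases.

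Rows of a joint transcript with Chkb, the choline kinase gene upstream of Cpt1b in the same locus, carry a symbol of their own and are not counted as Cpt1b. The table lists 3 such rows. In the HFD control library nearly all of their signal sat in 1 row (3.96 FPKM, the others at 0.01 and 0.02), which was listed at 0 in the SML library, where the others held 2.0 and 1.46 FPKM. Summed, the 3 rows came to 3.99 FPKM for HFD control against 3.46 for SML, with a ratio of 0.866 (0.698 to 1.07). The rows thus exchanged places while their sum differed by less than its counting error. Chkb itself, summed over 3 rows, had 94.7 and 103 FPKM and a ratio of 1.08 (1.01 to 1.15).

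Cpt2, the inner-membrane transferase, measured 393 FPKM in HFD control (386 to 401) against 385 in SML (376 to 393). Its ratio was 0.976 (0.948 to 1.00), and the direction of its small log2 difference (-0.03) turned under some other settings (-0.04 to 0.07). Cpt2 was thus near its HFD control level, with Cpt1b slightly above its own. Per length Cpt1b was 1.14 times Cpt2 in HFD control and 1.29 times in SML. Crat, which moves acetyl and other short acyl groups between coenzyme A and carnitine, stood at 270 FPKM (266 to 275) and 287 FPKM (281 to 292). The Crat ratio was 1.06 (1.03 to 1.08), from 15099 and 11763 fragments. Muscle fibres also express Cpt1b, Cpt2 and Crat, and muscle markers were lower in the SML library (17 of 17, median log2 difference -3.64; Acta1 881 against 52.5 FPKM, Tnni2 655 against 36.5). What part muscle RNA had in the 3 levels was not tested.

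**Figure D2:**
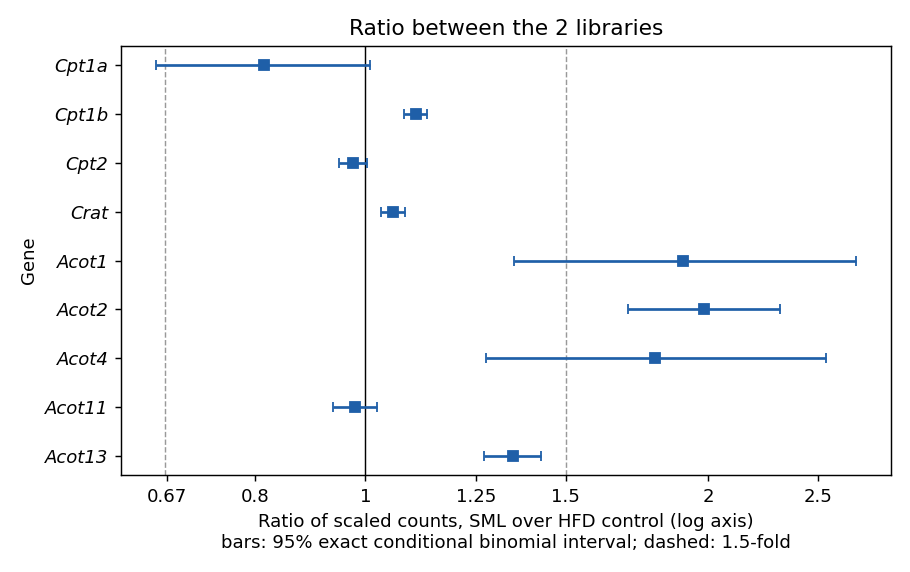
Ratio of scaled counts, SML over HFD control (log axis), for each gene, with 95% exact conditional binomial intervals for counting error and dashed lines at 1.5-fold. Acot1, Acot2 and Acot4 lie at 1.797 to 1.98, Acot13 at 1.35, and the 4 transferases and Acot11 between 0.814 and 1.11.

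Acot2 encodes the mitochondrial, Acot1 the cytosolic and Acot4 a peroxisomal thioesterase. The genes arose by duplication and stand in a row on the plus strand of chromosome 12 (mm10): the Acot2 row at chr12:83987861-83993875, that of Acot1 at chr12:84009502-84017669 and that of Acot4 at chr12:84038379-84044723. Each has an annotated coding transcript of 3 exons. Because near-identical copies can exchange reads, a stretch of 90 coding bases, from the middle of the Acot1 coding region (bases 584 to 673) and its aligned counterparts, is shown to let the 3 be compared. Sequences are from the GENCODE M21 transcripts of GRCm38, and capitals mark the 30 positions that are not the same in all 3.
Acot2: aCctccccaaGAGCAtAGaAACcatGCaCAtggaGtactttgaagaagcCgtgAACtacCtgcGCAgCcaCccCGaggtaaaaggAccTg
Acot1: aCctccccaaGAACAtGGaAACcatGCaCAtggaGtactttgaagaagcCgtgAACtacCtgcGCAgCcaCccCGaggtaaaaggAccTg
Acot4: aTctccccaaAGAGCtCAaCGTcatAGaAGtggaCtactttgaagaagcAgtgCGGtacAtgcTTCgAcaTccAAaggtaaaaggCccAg
Acot1 differs from Acot2 at 2 of the 90 positions, whereas Acot4 differs from Acot2 at 30. Over the whole coding region Acot1 and Acot2 are 95.3% identical (1178 of 1236 aligned bases), and 43.6% of the 50-base windows of Acot1 occur unchanged in Acot2. The longest run they share is 273 bases. Acot4 is 76.5% identical to Acot1 and 76.3% to Acot2, with 7.04% of the Acot1 windows and 6.34% of the Acot2 windows found in Acot4. How the authors' counting divided such reads was not stated in the sources used here, so the split between Acot1 and Acot2 is uncertain.

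Acot2 stood at 10.6 FPKM in the HFD control library (9.38 to 11.9; 283 fragments) and at 21.02 in the SML library (19.0 to 23.1; 413 fragments). Its ratio was 1.98 (1.70 to 2.31), and its difference of 0.93 ranked 89th from the top of the 9887 genes kept. Acot1 stood at 3.29 FPKM (2.51 to 4.23; 60 fragments) and 6.27 FPKM (5.00 to 7.76; 84 fragments). That gave a ratio of 1.90 with a wider interval of 1.35 to 2.70.

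Acot4 had 2.18 FPKM in HFD control (1.67 to 2.79; 62 fragments) and 3.93 in SML (3.13 to 4.88; 82 fragments), a ratio of 1.797 (1.28 to 2.54). The intervals of the ratios of the 3 genes overlap throughout, so at this depth no order among them can be read. For none of the 3 did the counting intervals of the level overlap between the libraries. Muscle and hepatocyte markers had the opposite direction between the same libraries, and their part in the Acot values was not tested. Summed over Acot1 and Acot2, which avoids their uncertain split, the level was 13.9 FPKM for HFD control against 27.3 for SML, with a ratio of 1.97 (1.71 to 2.27). The share of Acot2 in that sum was 76.3% (70.8 to 81.2) and 77.0% (72.6 to 81.1), and differed by less than counting error. Over all genes kept, differences went with GC content (Spearman's rho -0.32) and with transcript length (0.17), given as a description because genes are not independent replicates. With that trend removed, which left 3.58% of genes higher and 5.31% lower, Acot2 stood at 1.05 and Acot1 at 0.71 on the log2 scale, but Acot4 at 0.49, under the rule. That correction used the longest annotated transcripts, 6203 bases for Acot4 and 2613 for Acot1, while their rows implied about 2424 and 1661 bases. With GC content and length of the coding region instead, a choice made after seeing the data, Acot1 stood at 0.84 and Acot4 at 0.72. That correction left 3.84% of genes higher and 5.33% lower.

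**Figure D3:**
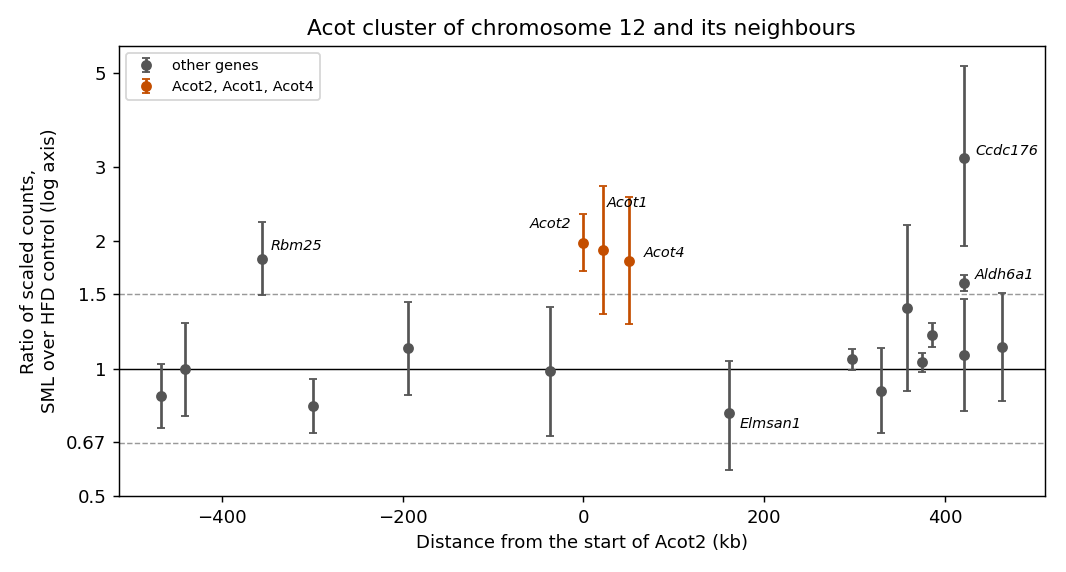
Ratio of scaled counts, SML over HFD control (log axis), of the 19 genes kept within 500 kb of the Acot cluster, against the distance of their row's start from that of Acot2, with 95% intervals for counting error and dashed lines at 1.5-fold. The 3 Acot genes (orange) lie at 1.797 to 1.98. Rnf113a2, Aldh6a1 and Ccdc176 share their plotted position because they are listed with the same locus start.

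The nearest genes kept on either side of the cluster lay within the 1.5-fold rule. Before Acot2 2410016O06Rik stood at 2.82 and 2.80 FPKM, a ratio of 0.990 (0.695 to 1.40), and beyond Acot4 Elmsan1 had a ratio of 0.785 (0.578 to 1.05). Of the 16 other genes kept within 500 kb, 3 were higher and 0 lower, beside 5.44% and 5.76% over all genes. The 3 were Rbm25 (1.82-fold, 1.49 to 2.22), Aldh6a1 (1.59-fold, 1.53 to 1.66), an enzyme of valine breakdown, and Ccdc176 (3.14-fold, 1.95 to 5.18). Aldh6a1 and Ccdc176 share their listed start with Rnf113a2 (ratio 1.08, 0.796 to 1.46), so they do not stand for separate loci. These neighbours were named after their values were seen. Acot3, Acot5 and Acot6, the further copies that follow Acot4 in the annotation, have no row in the table as used here. Acot1 shares 14.2% of its 50-base coding windows with Acot3 and 16.7% with Acot5, and Acot4 shares 9.97%, 10.4% and 10.7% with Acot3, Acot5 and Acot6, which leaves both values uncertain in this respect as well.

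Since the 3 genes were higher together, their RefSeq promoter windows are shown (GRCm38.p6, 250 bases before to 50 after the start of transcription, plus strand, at chr12:83987611-83987910, chr12:84009252-84009551 and chr12:84038129-84038428). The start site of each window is the first base of the span listed for the gene's row. Capitals mark the letters searched for on both strands: AGGTCA, the hexamer bound by many nuclear receptors; the PPAR and RXR element, searched as GGNCA with the hexamer AGGTCA after it and a single A between them; CACGTG, the E-box; and CCAAT. The second of these contains the first, and was chosen after the Acot4 window had been seen.
Acot2: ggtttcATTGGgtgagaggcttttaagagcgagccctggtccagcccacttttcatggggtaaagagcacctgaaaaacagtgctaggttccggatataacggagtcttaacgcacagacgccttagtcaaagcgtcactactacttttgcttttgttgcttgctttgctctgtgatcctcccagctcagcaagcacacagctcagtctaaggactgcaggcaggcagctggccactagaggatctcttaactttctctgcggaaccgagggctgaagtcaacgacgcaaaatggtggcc
Acot1: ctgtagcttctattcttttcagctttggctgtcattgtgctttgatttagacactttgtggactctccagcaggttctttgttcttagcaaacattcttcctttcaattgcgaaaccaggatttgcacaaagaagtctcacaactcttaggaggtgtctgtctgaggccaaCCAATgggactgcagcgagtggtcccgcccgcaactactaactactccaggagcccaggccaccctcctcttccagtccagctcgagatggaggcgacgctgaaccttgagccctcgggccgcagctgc
Acot4: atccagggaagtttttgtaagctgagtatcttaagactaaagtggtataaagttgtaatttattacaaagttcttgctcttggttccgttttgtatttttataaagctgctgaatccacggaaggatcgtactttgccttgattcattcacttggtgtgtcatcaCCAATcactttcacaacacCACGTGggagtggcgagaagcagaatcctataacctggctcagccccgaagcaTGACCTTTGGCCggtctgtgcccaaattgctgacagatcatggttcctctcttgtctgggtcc
The windows had CCAAT in common, on the reverse strand 244 bases before the start of Acot2 and on the forward strand 79 and 85 bases before those of Acot1 and Acot4, but 37.4% of 32851 windows in the RefSeq table hold CCAAT. Of the 3, only the Acot4 window held the string searched for the PPAR and RXR element, on the reverse strand 13 bases before the start. That string is held by 21 of the 32851 windows (0.0639%). Because it was chosen with the Acot4 window in view, its match there was fixed in advance and the share is no measure of rarity. Other forms of the element were not searched in any window. The match overlaps that of AGGTCA, which is held by 16.3% of windows. Acot4 also had CACGTG 66 bases before the start (7.15% of windows). A match describes the letters only and shows no binding.

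Acot11, also known as brown-fat-inducible thioesterase or Them1, is a long-chain thioesterase induced by cold in brown fat. Its level was 65.3 FPKM in HFD control (63.4 to 67.2; 4748 fragments) against 64.0 in SML (61.8 to 66.2; 3422 fragments). The ratio of 0.979 had an interval of 0.937 to 1.02, and its log2 difference of -0.03 changed sign when totals were made equal outside the 50 highest genes (0.02) or either GC and length trend was removed (0.02 and 0.05). The span listed for the Acot11 row is chr4:106733915-106799831 on the minus strand. It reaches past the annotated gene, which ends at 106744555 on that side, so it can be the span of a locus rather than of a transcript. The row implied about 5755 bases, close to the longest of 7 annotated transcripts, with 5689 bases. A coding transcript among the 7 has 2939 bases. RefSeq gives Acot11 a pair of start sites. The upstream edge of the listed span lies exactly at the downstream site and 5176 bases inside the other. Which start the transcript used is not settled by that edge. The window of the downstream site is shown (GRCm38.p6, chr4:106799782-106800081, minus strand), with its CACGTG in capitals 154 bases before the start.
Acot11: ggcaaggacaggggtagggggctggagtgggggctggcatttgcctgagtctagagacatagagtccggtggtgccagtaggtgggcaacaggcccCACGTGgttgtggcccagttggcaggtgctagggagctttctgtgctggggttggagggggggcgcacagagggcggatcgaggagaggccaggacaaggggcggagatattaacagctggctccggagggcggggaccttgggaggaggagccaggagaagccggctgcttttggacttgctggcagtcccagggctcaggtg
The sequence has a GC content of 64.7%, and CACGTG was its only match to the 4 motifs. The windows of Acot2, Acot1 and Acot4 have 51.3%, 52% and 44%, and those of Cpt2 and Cpt1a 57.3% and 62.3%. The window of the upstream Acot11 site, not shown, has 66%. It held CCAAT on the reverse strand, 152 bases before its start, and no other of the motifs. Windows of 6 of the 9 genes were in the RefSeq table. Cpt1b, Crat and Acot13 had none. In Cpt2 none of the 4 motifs was found, and in Cpt1a there were AGGTCA, 94 bases before the start, and CCAAT, 19 bases before it.

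Acot13, or Them2, a small thioesterase associated with mitochondria, was the most abundant thioesterase of the 5. Its level was 347 FPKM in HFD control (333 to 361; 2328 fragments) against 471 in SML (452 to 491; 2308 fragments). The ratio of 1.35 (1.27 to 1.43) was beyond counting error but under the 1.5-fold rule. Per length Acot13 was 5.32 times Acot11 in HFD control and 7.36 times in SML. Its coding transcript is short (721 bases, 3 exons), so its FPKM depends strongly on the length correction of the authors' software. The ratio of scaled counts is not divided by length, but differences over all genes went with GC content and length. With the GC and length trend of whole transcripts removed Acot13 passed the rule at 0.61, and with that of coding regions it stood at 0.36.

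**Figure D4:**
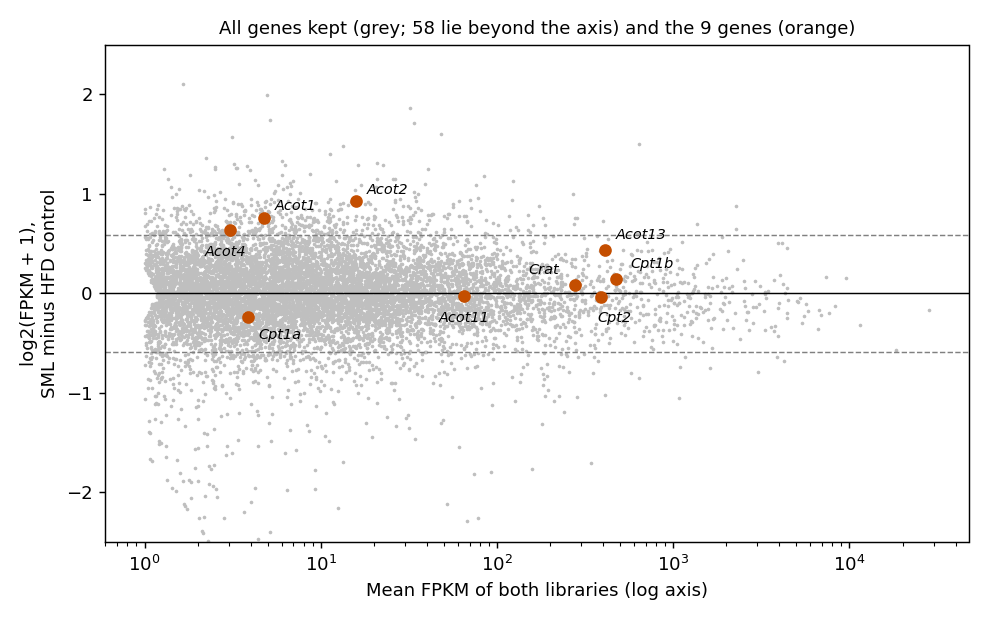
Difference in log2(FPKM + 1), SML minus HFD control, against mean FPKM (log axis) for the 9887 genes kept (grey, 58 of them beyond the vertical axis) and the 9 genes (orange), with dashed lines at 1.5-fold. Acot2, Acot1 and Acot4 lie above the upper line at low levels, and the abundant genes lie closer to 0.

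Other genes of acyl-CoA handling were taken from 7 lists. Over these 3 of 73 genes kept were higher (4.11%) and 1 lower (1.37%), beside 5.44% and 5.76% over all genes, so the counts below are near the background or under it. Of 5 further thioesterases kept, 0 were higher and 0 lower (median -0.18). Them6 was at the low end (8.19 and 5.42 FPKM, ratio 0.660, 0.488 to 0.886) with Acot8, a peroxisomal thioesterase (23.7 and 19.1 FPKM, ratio 0.802, 0.663 to 0.967). Acot9, a mitochondrial one, had 57.7 and 53.1 FPKM, and Them4 was at the high end with 8.37 and 10.6 FPKM. Among 5 other genes of the carnitine system kept, 0 passed the rule in either direction (median 0.22). Slc25a20, the translocase between CPT1 and CPT2, stood at 504 and 568 FPKM with a ratio of 1.13 (1.09 to 1.16), close to that of Cpt1b. Slc22a5, the carnitine importer of the cell membrane, had 19.2 and 23.8 FPKM (ratio 1.24, 1.11 to 1.38), Slc22a4 0.98 and 1.53 FPKM, and Aldh9a1, an enzyme of carnitine synthesis, 55.0 and 49.4 FPKM.

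Genes that make and bind long-chain acyl-CoA, the substrate of both enzyme groups, had 2 of 12 members higher and 0 lower (median 0.17). The higher ones were Acbd5, a peroxisomal acyl-CoA-binding protein (6.21 and 12.6 FPKM, 2.12-fold, 1.82 to 2.47), and Acsl4, an acyl-CoA synthetase (1.49 and 2.81 FPKM, 1.89-fold, 1.44 to 2.48). After removal of the trend on GC and length, Acsl4 was under the rule, at 0.29. At the low end lay Acbd6 (61.4 and 51.8 FPKM) and Dbi, the abundant acyl-CoA-binding protein (7125 and 6355 FPKM, ratio 0.884, 0.870 to 0.898). In the list of malonyl-CoA control, named for the inhibitor of CPT1, 0 of 6 were higher and 1 lower (median 0.13). Acly, the citrate lyase, was the lower gene (237 and 125 FPKM, 1.89-fold, 1.83 to 1.96). Acaca, the acetyl-CoA carboxylase of fatty acid synthesis, had a ratio of 0.826 (0.804 to 0.849). Acacb, the carboxylase at the mitochondrial surface, had the opposite direction at 1.39 (1.34 to 1.43), and Prkaa1, a catalytic subunit of AMPK, stood at 5.61 and 7.31 FPKM.

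Downstream of the carnitine shuttle, 0 of 18 mitochondrial beta-oxidation genes were higher and 0 lower (median 0.02). Their ends were Acaa2, the thiolase (3724 and 2889 FPKM, ratio 0.774, 0.764 to 0.783), and Hadh (1491 and 1359 FPKM) against Etfa, an electron acceptor of the dehydrogenases (929 and 1328 FPKM, ratio 1.43, 1.39 to 1.46), and Acadl, the long-chain dehydrogenase (1397 and 1781 FPKM). Peroxisomal beta-oxidation likewise had 0 of 16 past the rule in either direction (median 0.12), from Ech1 (4007 and 3169 FPKM) and Acox3 (12.1 and 11.1 FPKM) to Abcd3, an acyl-CoA importer (79.1 and 114 FPKM), and Scp2, a thiolase and lipid carrier (298 and 444 FPKM, ratio 1.49, 1.45 to 1.53). For acetyl-CoA and ketone handling 1 of 11 was higher and 0 lower (median -0.03). Acss1, which makes mitochondrial acetyl-CoA from acetate, was the higher one (30.6 and 51.9 FPKM, 1.69-fold, 1.58 to 1.82). Oxct1, which uses ketone bodies, stood at 70.8 and 87.4 FPKM.

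**Figure D5:**
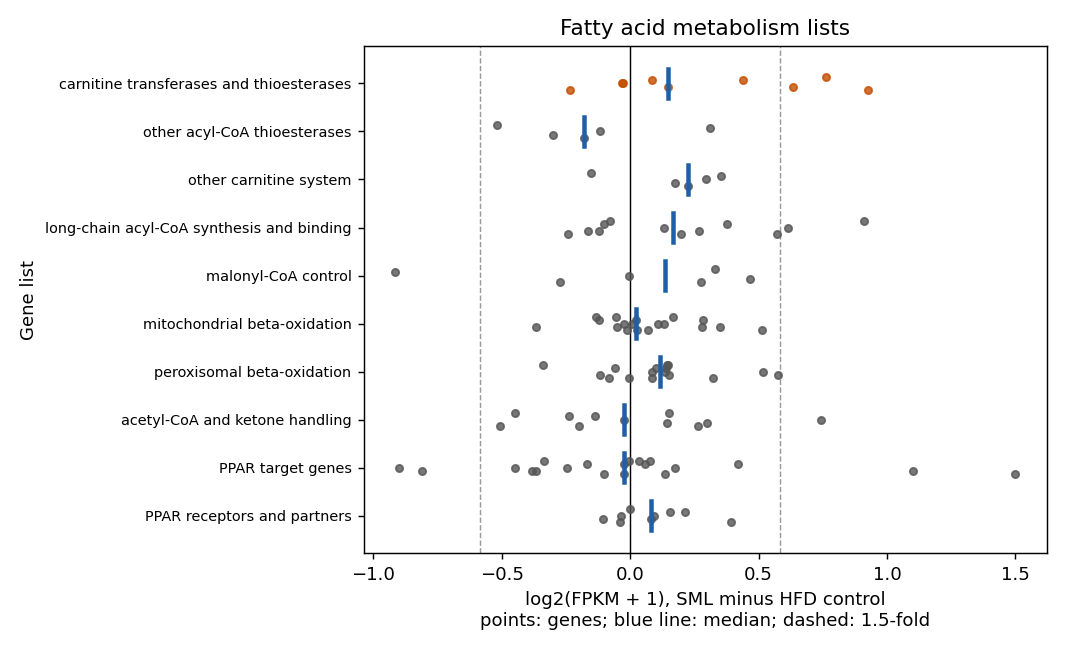
Difference in log2(FPKM + 1), SML minus HFD control, of each gene kept in the 9 fatty acid metabolism lists and, at the top in orange, the 9 genes, with medians as blue lines and dashed lines at 1.5-fold. List medians run from -0.18 for other thioesterases to 0.22 for other carnitine genes, and most genes lie between the dashed lines.

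PPAR nuclear receptors are known regulators of Cpt1b and of the Acot cluster, so a list of PPAR target genes was described beside them. Of 20 such genes 2 were higher and 2 lower (median -0.02), beside 5.44% and 5.76% over all genes. Lpl, the lipase that frees fatty acids from lipoproteins (335 and 951 FPKM), and Vnn1, a pantetheinase (1.82 and 5.05 FPKM, 2.77-fold, 1.98 to 3.91), were the higher ones. The lower ones were Cyp4b1 (34.6 and 18.1 FPKM, 1.92-fold, 1.68 to 2.20) and Angptl4, a lipase inhibitor (234 and 133 FPKM). The receptors and their partners had 0 of 9 past the rule in either direction (median 0.08). Ppara stood at 26.3 and 25.5 FPKM, Ppard at 7.82 and 7.20, Rxra at 11.7 and 13.7, and the coactivator gene Ppargc1a at 2.34 and 3.38 FPKM (ratio 1.44, 1.18 to 1.76).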

How the data were processed

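Poly(A) RNA of brown adipose tissue was sequenced from 1 library per group, with TruSeq libraries per the labels' protocols. The authors deposited FPKM values. CASAVA 1.8, Cufflinks and build mm10 are named per the submitters' processing notes. Aligner, annotation and filters were not stated in the sources used here. The count columns the authors deposited are a scaled signal, not raw counts: low values of symbols with 1 row moved in steps of 0.6373 (HFD control) and 0.8659 (SML). Taking a step as 1 fragment, 90.6% of 513 and 90.5% of 725 values of up to 20 steps were whole within 0.1. Dividing by the step gave the fragments.

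Rows were summed per symbol (14189 rows, of which 17 symbols had been turned into dates). Differences are log2(FPKM + 1) on the deposited scaling, with a mean of at least 1 FPKM. Ratios of scaled counts carry 95% exact conditional binomial intervals, and levels and shares 95% exact Poisson and binomial intervals. PCR duplicates are not separated, so these cover counting error only. GC content and length came from GENCODE M21, matched for 96.3% of genes kept (coding regions 94.0%), and their trend was removed with cubic terms. Coding regions were aligned with Biopython 1.88, and other steps used Python 3.11.15, numpy 2.4.6, scipy 1.17.1 and pandas 2.3.3. The procedure was tested on simulated data.

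The 9 genes and the lists were chosen with earlier results of these data known. Named from each metabolic list were up to 2 genes at each end of the differences, and from marker lists up to 2 of the most abundant. Ucp1, Prdm16, Alb, Chkb and the neighbours of the Acot cluster were chosen outside this rule, and some genes that it names are not reported here. With 2 libraries no gene was named for likeness of pattern.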

Additional observations from a re-analysis of the deposited data

How the results depend on the processing

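Of the alternatives for the 9 differences, 2 (centring on the median and the highest row per symbol) could not move them, since the median was 0 and each gene had 1 row. Of the 46 other values 39 kept their direction and their side of the 1.5-fold rule, 5 near 0 changed sign (Cpt2 and Acot11), 1 fell under the rule (Acot4, 0.49) and 1 came past it (Acot13, 0.61). Ranges over the alternatives were 0.93 to 1.05 for Acot2, 0.71 to 0.91 for Acot1, 0.49 to 0.83 for Acot4, 0.36 to 0.61 for Acot13 and 0.15 to 0.25 for Cpt1b. At a mean of at least 5 FPKM, which removes Acot1, Acot4 and Cpt1a, 1 of the 9 genes was higher, and at 2-fold 0 were, with Acot2 just short. Over all genes 847 were higher and 833 lower with a pseudocount of 0.1, 883 and 820 by scaled counts with 1 added, 657 and 490 with totals equal outside the 50 highest genes, 341 and 506 after removal of the GC and length trend and 357 and 495 after that of coding regions (added after seeing the data). At a mean of at least 5 FPKM 319 were higher and 306 lower, at 2-fold 66 and 194, and without a filter 571 and 1117. By scaled counts, not per length, Cpt1b held 98.58% of the Cpt1a and Cpt1b sum in HFD control and 98.95% in SML. Of 144 list medians 127 moved by less than 0.1 and 6 changed sign: at a mean of at least 5 FPKM acyl-CoA synthesis and binding (-0.08), malonyl-CoA control (-0.01) and acetyl-CoA and ketone handling (0.06), with totals equal the last (0.03) and PPAR targets (0.03), and with the GC and length trend removed acetyl-CoA and ketone handling (0.0037). No paired analysis was possible because each group had 1 library. Depth limits Acot1, Acot4 and Cpt1a most, with 60 to 232 fragments per library.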
